A study of Mus musculus with 16 samples.

Results

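Recruited and lipid-associated macrophage markers were followed here as 9 genes, Cx3cr1, Ccr2, Trem2, Gpnmb, Cd68, Lgals3, Lyz2, Ms4a7 and Clec7a, in bulk RNA from mouse liver. They were picked by name, as the rows of both count tables whose gene name equals 1 of the 9. Earlier results of these data were known when they were chosen. All 9 were present among the 24421 rows of each table. DKO livers carried ARID1A f/f and ARID1B f/f with Alb-Cre+ (4 libraries), and their controls carried both floxed genes with Alb-Cre- (4 libraries). BKO livers carried ARID1B f/f with Alb-Cre+ (4 libraries), and their controls carried ARID1B f/f with Alb-Cre- (4 libraries). All 16 libraries therefore came from mice with a floxed Arid1b, and every control was Cre-negative, so Cre itself and the deletion cannot be told apart. The labels give no ages or treatments and do not say which exons were floxed. ARID1A and ARID1B belong to SWI/SNF (BAF) complexes, which remodel chromatin and hold 1 or the other, and Alb-Cre is a transgene driven by the albumin promoter, which is active in hepatocytes and not in macrophages.

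The resident macrophages of the liver are Kupffer cells, which carry CLEC4F, VSIG4 and TIMD4 and maintain themselves locally. When the liver is injured, monocytes enter from the blood by way of CCR2, and their progeny can take up a lipid-associated, or scar-associated, state known for TREM2, GPNMB, CD9 and SPP1, which handles lipid and cell debris through lysosomes. Cd68, Lyz2 and Clec7a are broader markers of myeloid cells and phagocytes, so they are less selective for recruited cells than Ccr2 or Trem2.

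Arid1b stood at 45.4 to 78.04 CPM (read counts scaled to library size with TMM factors) in DKO livers, against 80.7 to 97.3 CPM in their controls, and at 40.1 to 48.4 CPM in BKO livers, against 81.9 to 86.4 CPM in their controls, and it was called lower in both comparisons (edgeR adjusted p = 0.0167 and 0.00154). Arid1a stood at 99.6 to 114 CPM in DKO livers, against 112 to 136 CPM in their controls, a difference that was not called (edgeR adjusted p = 0.149). These counts run over the whole gene, and the share from the floxed exons is not known here. DKO livers and their controls had 8699417 to 11031443 counts per library, and BKO livers and their controls 21151726 to 40551934. The summed level of 8 hepatocyte genes was 64765 to 90809 CPM in DKO livers, against 113591 to 138319 CPM in their controls, so together these genes made up less of each DKO library. The sum mostly follows Alb, at 53336 CPM of a mean sum of 75400 CPM in DKO livers and 100122 CPM of 125870 CPM in controls. Of the 8 genes, 4 fell, 1 rose and 3 were not called. The BKO controls F5 and F5-2 share a number in their labels, which do not say whether a single animal gave both.

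All 9 markers were higher in DKO livers than in their controls, by 2.99-fold for Cd68 to 27.5-fold for Trem2 in mean CPM, and by more for Gpnmb, which was almost without counts in the controls. For comparison, 19.2% of the 12848 genes tested were called higher in DKO livers and 16.6% lower, and 18.5% had 4 DKO libraries all above the 4 controls. The median log2 fold change was 3.25 over the 9 markers and 0.02 over all genes tested. Cx3cr1, Ccr2, Trem2, Gpnmb and Ms4a7 passed the filter on low counts only through the DKO livers, so these 5 were tested only because of their level there. Cd68, Lgals3, Lyz2 and Clec7a passed it in the controls as well. The log2 fold changes of the 5 ran from 3.25 to 7.51 and those of the other 4 from 1.58 to 2.54. The median of the 9 is the value of Ccr2, 1 of the 5. With no filter, the 9 were again all called. The filter needed about 1.04 CPM, before TMM scaling, in 4 libraries. Of the genes named below, S100a8, S100a9, Siglech, Ccr7, Flt3, Tspan8, Vcan, Ly6c2, Mmp12 and Ccr1 averaged less than this in controls. They too were tested only because of their level in DKO livers. So was Cx3cl1, whose controls averaged 1.21 CPM with a spread too wide for all 4 to pass. Spic, Cd4 and Card9 averaged 1.25, 1.36 and 1.19 CPM in controls, and whether all 4 controls passed was not checked. The animal tags fall into 2 series of numbers, with DKO-7068, DKO-7070, WT-7067 and WT-7069 in the earlier and the other 4 libraries in the later. The labels do not say whether the tags mark a batch, and with the series as a term in the fit the 9 were all called too, with log2 fold changes of 4.71 for Trem2 and 7.54 for Gpnmb (edgeR adjusted p = 2.67e-05 and 5.43e-06). In bulk RNA, more cells of a type and more RNA of a gene per cell cannot be told apart. Values by library are given below in the order DKO-7068, DKO-7070, DKO-7112 and DKO-7137, against WT-7067, WT-7069, WT-7114 and WT-7139.

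**Figure D1:**
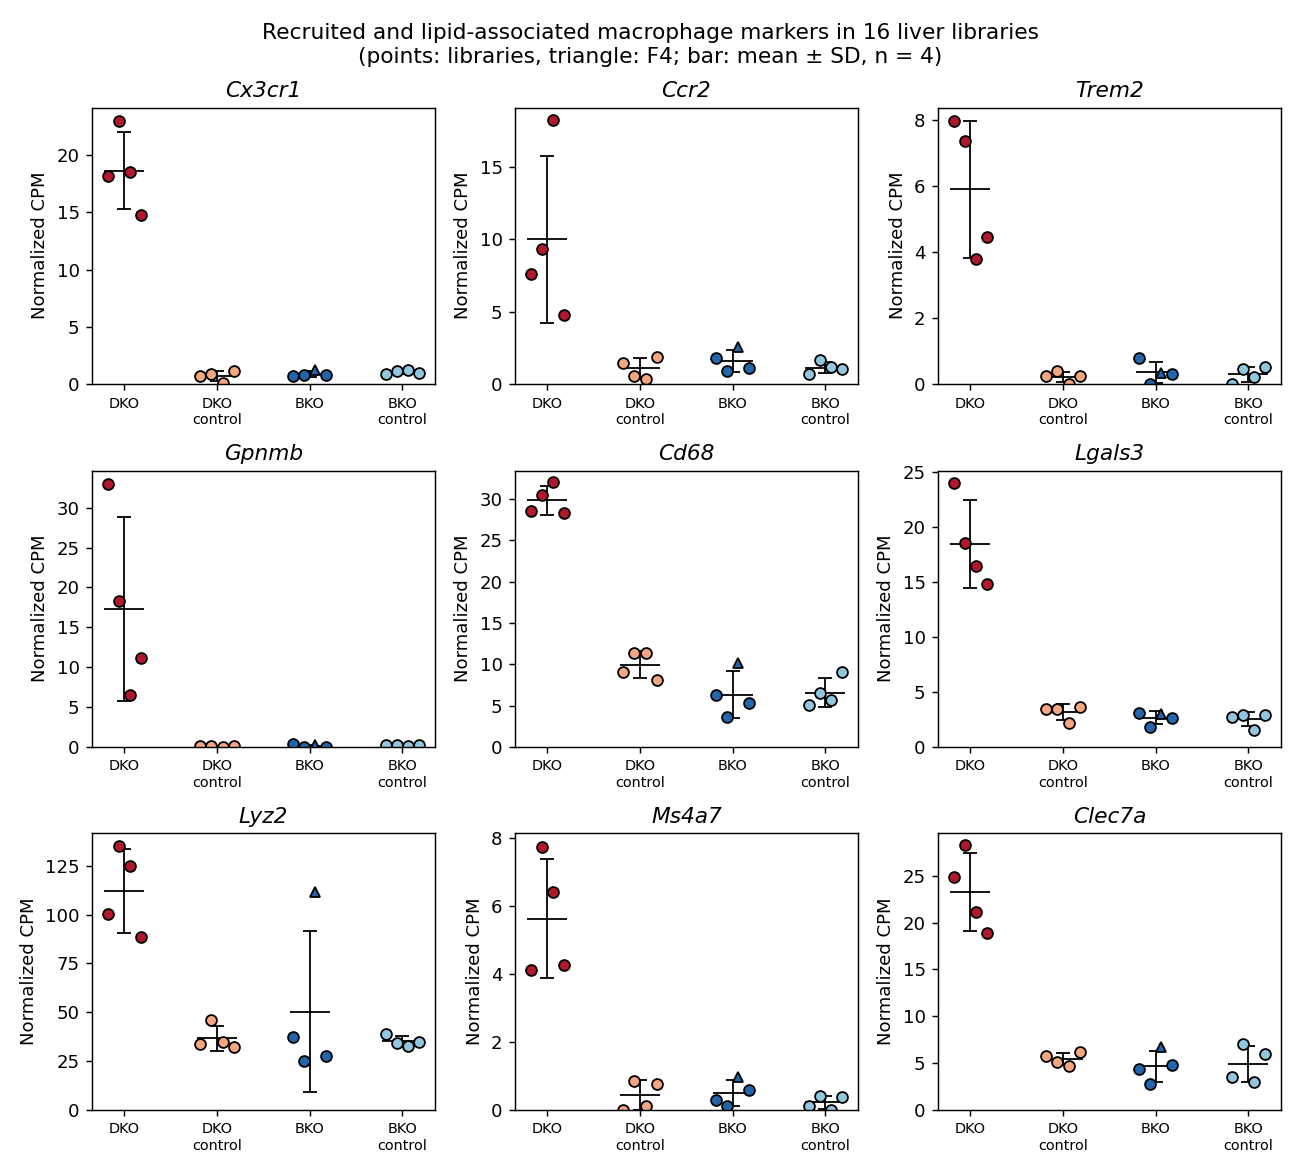
Level of each of the 9 markers in every library (TMM-normalized CPM, linear axis from 0), with DKO livers left of their controls and BKO livers left of theirs. Each point is 1 library, F4 is a triangle, and bars give the group mean with its SD (n = 4). All 4 DKO points lie above all 4 control points for every marker, whereas BKO and BKO control points overlap for every marker.

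Cx3cr1 encodes the receptor for fractalkine (CX3CL1), carried by patrolling monocytes and many tissue macrophages. Its level was 18.1, 23.03, 18.6 and 14.8 CPM in DKO livers, against 0.672, 0.859, 0.112 and 1.14 CPM in control livers. The groups were far apart, with the lowest DKO library, DKO-7137, well over the highest control, WT-7139. The means were 18.6 ± 3.37 CPM in DKO livers and 0.695 ± 0.433 CPM in controls (SD, n = 4 each), a log2 fold change of 4.73 ± 0.35 (SE, edgeR adjusted p = 9.84e-06). In GENCODE M21 on GRCm38, Cx3cr1 lies at chr9:119901616-120069879 on the minus strand, a span that 9 other genes overlap, 6 of them on the opposite strand, and the strand setting of the counting is not given, so some of its counts may belong to a neighbour.

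Ccr2 encodes the receptor for CCL2 through which inflammatory monocytes leave the bone marrow and enter tissue. Its level was 7.64, 9.36, 18.2 and 4.77 CPM in DKO livers, against 1.46, 0.573, 0.337 and 1.89 CPM in control livers. DKO-7112 held the most and DKO-7137 the least, and the groups did not overlap. The means were 9.999 ± 5.81 CPM in DKO livers and 1.06 ± 0.733 CPM in controls (log2 fold change 3.25 ± 0.55, edgeR adjusted p = 0.00179). Ccr2 lies at chr9:124101950-124113557 on the plus strand.

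Of 6 ligands and growth factors that act on these receptors or on macrophage survival, 3 were tested in DKO livers, 1 rose and 2 were not called. Leaving out DKO-7068, WT-7067, WT-7069, WT-7114 or WT-7139 gave 4 tested and 2 called higher, and without WT-7114 also 1 called lower. Cx3cl1, the membrane-bound chemokine that CX3CR1 binds, averaged 15.4 ± 3.67 CPM in DKO livers and 1.21 ± 0.374 CPM in controls, with a log2 fold change of 3.66 ± 0.26 (edgeR adjusted p = 8.07e-06) and groups that did not overlap. Receptor and ligand transcripts thus both rose in the same livers, and both were tested only because of their level there. Csf1 and Il34, the ligands of the macrophage growth factor receptor CSF1R, had log2 fold changes of 0.13 (edgeR adjusted p = 0.689) and -0.65 (edgeR adjusted p = 0.107). Ccl2, Ccl7 and Ccl12, the CCR2 ligands of the list, did not pass the filter on low counts, and Ccl2 averaged 1.54 CPM in DKO livers and 0.163 CPM in controls.

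Cd68, a heavily glycosylated protein of lysosomes and endosomes in phagocytes, was among the least variable of the 9. Its level was 28.5, 30.5, 32.02 and 28.3 CPM in DKO livers, against 9.07, 11.4, 11.3 and 8.08 CPM in control livers. The DKO libraries lay close together, and all stood above every control. The means were 29.8 ± 1.77 CPM in DKO livers and 9.96 ± 1.65 CPM in controls, a 2.99-fold difference (log2 fold change 1.58 ± 0.14, edgeR adjusted p = 2.33e-05).

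Lyz2 encodes lysozyme M, an enzyme that cleaves bacterial cell walls and is made by macrophages, monocytes and neutrophils. Its level was 100.2, 135, 125 and 88.5 CPM in DKO livers, against 33.6, 45.9, 34.7 and 32.3 CPM in control livers, and the groups did not overlap. The means were 112 ± 21.6 CPM in DKO livers and 36.6 ± 6.27 CPM in controls (3.06-fold, log2 fold change 1.61 ± 0.16, edgeR adjusted p = 6.67e-05). Lyz2 lies at chr10:117277331-117282321 on the minus strand beside its paralog Lyz1, in which 15.4% of its 50-base windows also occur. Lyz1 itself had 15 counts over the 4 DKO livers, against 4 over the 4 controls, so few reads were assigned to it.

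Trem2 encodes a receptor for lipids and lipoproteins that signals through the adaptor TYROBP and is the defining gene of lipid-associated macrophages. Its level was 7.97, 7.38, 3.8 and 4.46 CPM in DKO livers, against 0.224, 0.382, 0 and 0.252 CPM in control livers. The DKO libraries all stood above every control, and DKO-7068 and DKO-7070, of the earlier tag series, stood above DKO-7112 and DKO-7137, of the later. The means were 5.9 ± 2.08 CPM in DKO livers and 0.215 ± 0.159 CPM in controls (log2 fold change 4.68 ± 0.50, edgeR adjusted p = 8.88e-05), resting on 257 counts in DKO livers and 8 in controls.

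Gpnmb encodes a membrane glycoprotein of lysosome-rich and lipid-laden macrophages, which melanocytes also make. Its level was 33.01, 18.4, 6.51 and 11.2 CPM in DKO livers, against 0.112, 0.0955, 0 and 0.126 CPM in control livers. It ranged widely among DKO livers, from DKO-7068 at the top to DKO-7112 at the bottom, yet the lowest of them stood far above every control. The DKO libraries held 774 counts and the controls 3, a depth-scaled ratio of 222 with a 95% interval of 75.6 to 1078 that covers counting error only. The fitted log2 fold change was 7.51 ± 0.80 (edgeR adjusted p = 0.000179). Of the melanocyte genes, Tyr was at 0 in the 4 DKO livers and their 4 controls, Mlana averaged 0.043 CPM in DKO livers and 0.028 CPM in controls, and Pmel 0.693 CPM in DKO livers and 0.537 CPM in controls, and none of these 3 passed the filter. Dct was lower in DKO livers (0.0271 CPM, against 5.66 CPM in controls, edgeR adjusted p = 2.92e-05). The part of melanocytes in the Gpnmb level was not tested.

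Lgals3 encodes galectin-3, a sugar-binding protein of activated macrophages that cholangiocytes also make. Its level was 23.98, 18.5, 16.4 and 14.8 CPM in DKO livers, against 3.47, 3.44, 2.13 and 3.66 CPM in control livers. Every DKO library exceeded every control, with DKO-7068 highest. The means were 18.4 ± 4.001 CPM in DKO livers and 3.17 ± 0.702 CPM in controls (5.81-fold, log2 fold change 2.54 ± 0.22, edgeR adjusted p = 2.28e-05). The bile duct genes Krt19 and Krt7 averaged 2.41 and 0.874 CPM in DKO livers, against 0.798 and 0.763 CPM in controls, and their part in the Lgals3 difference was not tested.

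Ms4a7 encodes a tetraspanning membrane protein found in macrophages of monocyte origin. Its level was 4.11, 7.74, 6.4 and 4.25 CPM in DKO livers, against 0, 0.859, 0.112 and 0.757 CPM in control livers. All DKO libraries stood above the controls, at low levels throughout. The means were 5.62 ± 1.76 CPM in DKO livers and 0.432 ± 0.439 CPM in controls (log2 fold change 3.64 ± 0.58, edgeR adjusted p = 0.000925), on 236 and 16 counts.

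Clec7a encodes dectin-1, the receptor of myeloid cells for beta-glucans of fungal walls. Its level was 24.9, 28.2, 21.2 and 18.9 CPM in DKO livers, against 5.71, 5.06, 4.71 and 6.18 CPM in control livers. The groups did not overlap, and DKO-7070 was highest. The means were 23.3 ± 4.13 CPM in DKO livers and 5.42 ± 0.658 CPM in controls (4.3-fold, log2 fold change 2.11 ± 0.17, edgeR adjusted p = 1.58e-05).

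In the same annotation Trem2 lies at chr17:48346401-48354147 (plus strand), Gpnmb at chr6:49036546-49070929 (plus), Cd68 at chr11:69664213-69666153 (minus) and Lgals3 at chr14:47367751-47386160 (plus). Ms4a7 lies at chr19:11321039-11336146 (minus) and Clec7a at chr6:129461591-129472779 (minus), where it is listed as a polymorphic pseudogene. None of the 9 but Cx3cr1 overlaps another annotated gene.

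The promoters of Gpnmb, Trem2 and Cd68 are shown because these are the strongest, the defining and the steadiest of the rises in DKO livers. The windows run from 250 bases before to 50 after the RefSeq gene start on GRCm38.p6, written 5′ to 3′ along the gene. Capitals mark matches on either strand to the AP-1 motif TGANTCA and, in Trem2 at window bases 210 to 216, to the PU.1 motif GAGGAAG read on the other strand. PU.1 is the factor that directs myeloid genes, and AP-1 motifs are common in genes of activated macrophages.
Gpnmb, chr6:49036268-49036567, plus strand: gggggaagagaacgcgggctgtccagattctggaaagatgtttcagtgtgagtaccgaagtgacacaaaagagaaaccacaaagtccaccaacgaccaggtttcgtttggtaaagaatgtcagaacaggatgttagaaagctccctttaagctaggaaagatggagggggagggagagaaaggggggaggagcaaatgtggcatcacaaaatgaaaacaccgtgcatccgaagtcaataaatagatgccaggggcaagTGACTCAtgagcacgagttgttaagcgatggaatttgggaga
Trem2, chr17:48346151-48346450, plus strand: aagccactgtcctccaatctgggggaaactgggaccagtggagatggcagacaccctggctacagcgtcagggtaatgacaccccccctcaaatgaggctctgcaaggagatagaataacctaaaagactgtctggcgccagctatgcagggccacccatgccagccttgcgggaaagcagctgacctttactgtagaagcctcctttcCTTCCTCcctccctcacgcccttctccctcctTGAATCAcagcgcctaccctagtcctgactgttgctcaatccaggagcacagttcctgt
Cd68, chr11:69666121-69666420, minus strand: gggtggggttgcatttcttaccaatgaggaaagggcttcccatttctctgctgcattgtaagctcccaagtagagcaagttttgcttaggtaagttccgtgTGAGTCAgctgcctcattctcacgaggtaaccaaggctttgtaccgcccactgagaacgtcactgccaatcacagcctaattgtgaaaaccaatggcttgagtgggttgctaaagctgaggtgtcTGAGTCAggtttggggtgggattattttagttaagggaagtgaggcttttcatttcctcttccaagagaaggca
The AP-1 letters were found in Gpnmb, Trem2, Cd68 (2 matches) and Ms4a7, which is 4 of the 9 genes and 4 of their 11 windows. They were in 7.81% of all 32817 promoter windows of that length. For Ms4a7 they lay in the window chr19:11334646-11334945 and not in that at chr19:11336097-11336396. The PU.1 letters were found in Trem2 alone among the 9 and in 13.6% of all windows. The E-box CACGTG was in none of the 11 windows of the 9 genes and in 7.15% of all windows. The M-box TCATGTG was in the Ms4a7 window that held the AP-1 letters and in 3.78% of all windows. No match overlapped another. These are matches of letters only, and binding was not measured.

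**Figure D2:**
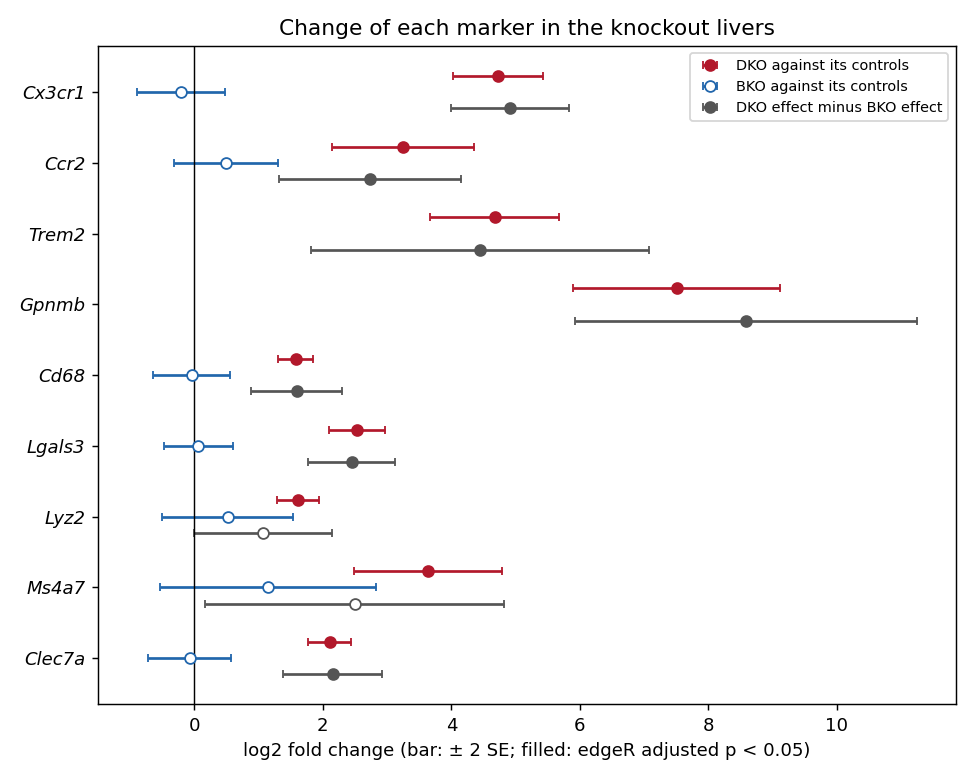
Log2 fold change of each marker with bars of 2 SE either side, for DKO over its controls, BKO over its controls, and the difference of the effects, with filled points for an edgeR adjusted p under 0.05. DKO values run from 1.58 for Cd68 to 7.51 for Gpnmb, while the 7 BKO values tested lie between -0.21 and 1.14 with bars that span 0.

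Levels of the 9 genes can be set side by side per kilobase of exon. In DKO livers, Lyz2 was the most abundant at 85.3 ± 16.4 CPM per kb, followed by Cd68 at 23.7 ± 1.41, Lgals3 at 9.92 ± 2.15 and Clec7a at 8.83 ± 1.57 (SD, n = 4). Lgals3 and Clec7a lay within their SDs of each other. Cx3cr1 followed at 4.14 ± 0.749 CPM per kb and Gpnmb at 2.65 ± 1.78, which also overlapped. Ccr2, Ms4a7 and Trem2 stood lowest in DKO livers, at 1.48 ± 0.859, 1.26 ± 0.395 and 1.19 ± 0.42 CPM per kb, and could not be ordered beyond their SDs. In DKO controls, Lyz2 and Cd68 again led at 27.8 ± 4.77 and 7.92 ± 1.31 CPM per kb, and Gpnmb came last at 0.0128 ± 0.00875.

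Other genes known from monocyte-derived macrophages also rose. Of 9 tested genes from a list of 12 other monocyte-derived macrophage genes, 9 rose in DKO livers and 0 fell, with a median log2 fold change of 1.68. Itgax, the integrin CD11c, averaged 15.6 CPM in DKO livers and 1.68 CPM in controls (edgeR adjusted p = 1.92e-05). Vcan, a matrix proteoglycan of classical monocytes, averaged 8.87 CPM in DKO livers and 0.608 CPM in controls (edgeR adjusted p = 8.16e-05), and Plac8 averaged 19.1 CPM in DKO livers and 6.15 CPM in controls (edgeR adjusted p = 0.00137). Ly6c2, the surface antigen of inflammatory mouse monocytes, also rose (2.18 CPM in DKO livers, 0.339 CPM in controls, edgeR adjusted p = 0.0112). Several genes of this list have other sources in liver, Fn1 of hepatocytes above all.

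Among 14 other genes of the lipid-associated state, 8 rose, 0 fell and 6 were not called in DKO livers (median log2 fold change 0.70). With 1 library left out in turn, 6 to 9 were called higher, and 1 was lower without DKO-7112, WT-7069 or WT-7139. Mmp12, the macrophage elastase, averaged 21.1 CPM in DKO livers and 0.215 CPM in controls, a 97.99-fold difference (edgeR adjusted p = 3.14e-06). Cd63, a tetraspanin of late endosomes, averaged 95.1 CPM in DKO livers and 2.92 CPM in controls, and Lpl, lipoprotein lipase, 296 CPM in DKO livers and 16.6 CPM in controls (edgeR adjusted p = 3.63e-07 and 6.88e-06). Spp1, osteopontin, rose with a log2 fold change of 3.93 (edgeR adjusted p = 0.00403). The 6 others included genes central to the state: Cd9 had a log2 fold change of 1.19 and Fabp5 of 0.65 (edgeR adjusted p = 0.0737 and 0.369), and the lipid-handling lysosomal lipase Lipa of -0.34 (edgeR adjusted p = 0.0777). Cd63, Lpl and Spp1 are also made by other liver cells, and the part of each cell type was not tested.

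Of the 8 signalling partners of TREM2 and dectin-1, 7 were tested, 4 rose and 3 were not called in DKO livers (median log2 fold change 1.13). Tyrobp, the adaptor that TREM2 needs, averaged 9.74 CPM in DKO livers and 4.42 CPM in controls (edgeR adjusted p = 0.00155). Syk, the kinase that both receptors recruit, averaged 21.7 CPM in DKO livers and 9.86 CPM in controls (edgeR adjusted p = 0.000525), and the phospholipase gene Plcg2 10.6 CPM in DKO livers and 3.98 CPM in controls (edgeR adjusted p = 0.00356). Card9, Malt1 and Bcl10, which form the complex downstream of dectin-1, were the 3 not called. Both adaptor and kinase therefore rose by less than their receptors, at 2.21-fold for Tyrobp and 2.2-fold for Syk, against 27.5-fold for Trem2 and 4.3-fold for Clec7a, a gap that was not tested.

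Among markers of macrophages in general most rose, and those of Kupffer cells were mixed. Of 12 pan-macrophage genes, 9 rose, 0 fell and 3 were not called in DKO livers, with a median log2 fold change of 1.03, and 12 of 12 were called higher when libraries were scaled by total counts only. Ctss, a cathepsin of antigen-presenting cells, rose 2.71-fold, Spi1, which encodes PU.1, 2.38-fold and Fcgr1, an IgG receptor, 3.29-fold (edgeR adjusted p = 6.77e-05, 0.000304 and 0.000339). Adgre1 (F4/80) and Csf1r had log2 fold changes of 0.48 and 0.35 and were not called (edgeR adjusted p = 0.101 and 0.118). Of 10 Kupffer cell markers, 3 rose, 1 fell and 6 were not called in DKO livers, and their median log2 fold change was -0.11, or 0.08 under that scaling. With 1 library left out in turn, 2 to 4 of the 10 were called higher and 1 to 2 lower, the 2 lower without DKO-7068 or WT-7139.

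Within that list, Clec4f, the lectin that defines Kupffer cells, averaged 87.2 CPM in DKO livers and 121 CPM in controls (edgeR adjusted p = 0.0503), and Vsig4 averaged 26.3 CPM in DKO livers and 27.1 CPM in controls (edgeR adjusted p = 0.824). Marco, a scavenger receptor, rose 2.43-fold and Cd5l 1.71-fold in DKO livers (edgeR adjusted p = 0.00564 and 0.00947), and Spic was the other riser (edgeR adjusted p = 0.0494). Cd163, the haemoglobin scavenger receptor, stood at 0.9 to 10.9 CPM in DKO livers, against 28.04 to 48.5 CPM in controls. It fell to a mean of 6.39 ± 4.74 CPM in DKO livers, against a mean of 36.7 ± 10.2 CPM in controls (log2 fold change -2.54 ± 0.59, edgeR adjusted p = 0.0115).

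Each of the 9 was also higher in DKO livers when expressed as a percentage of the summed CPM of the 12 pan-macrophage genes. That sum was 651 to 807 CPM in DKO livers, against 331 to 533 CPM in controls, with no overlap. On this scale Cx3cr1 stood at 2.56% ± 0.367 in DKO livers and 0.178% ± 0.128 in controls (mean and SD, n = 4 each), Trem2 at 0.82% ± 0.3 in DKO livers and 0.0515% ± 0.0352 in controls, and Gpnmb at 2.42% ± 1.68 in DKO livers and 0.0213% ± 0.0164 in controls. As a ratio of DKO livers to controls, Cd68 and Lyz2 differed least, with Cd68 at 4.12% ± 0.163 in DKO livers and 2.53% ± 0.462 in controls and Lyz2 at 15.4% ± 1.93 in DKO livers and 9.21% ± 0.642 in controls. For all 9 the DKO livers stayed above every control on this scale, as did 4.55% of all genes tested. Against the summed Kupffer cell markers, which were 486 to 580.3 CPM in DKO livers and 458 to 709 CPM in controls, the summed level of the 9 made a ratio of 0.391 to 0.535 in DKO livers and 0.0966 to 0.119 in controls.

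**Figure D3:**
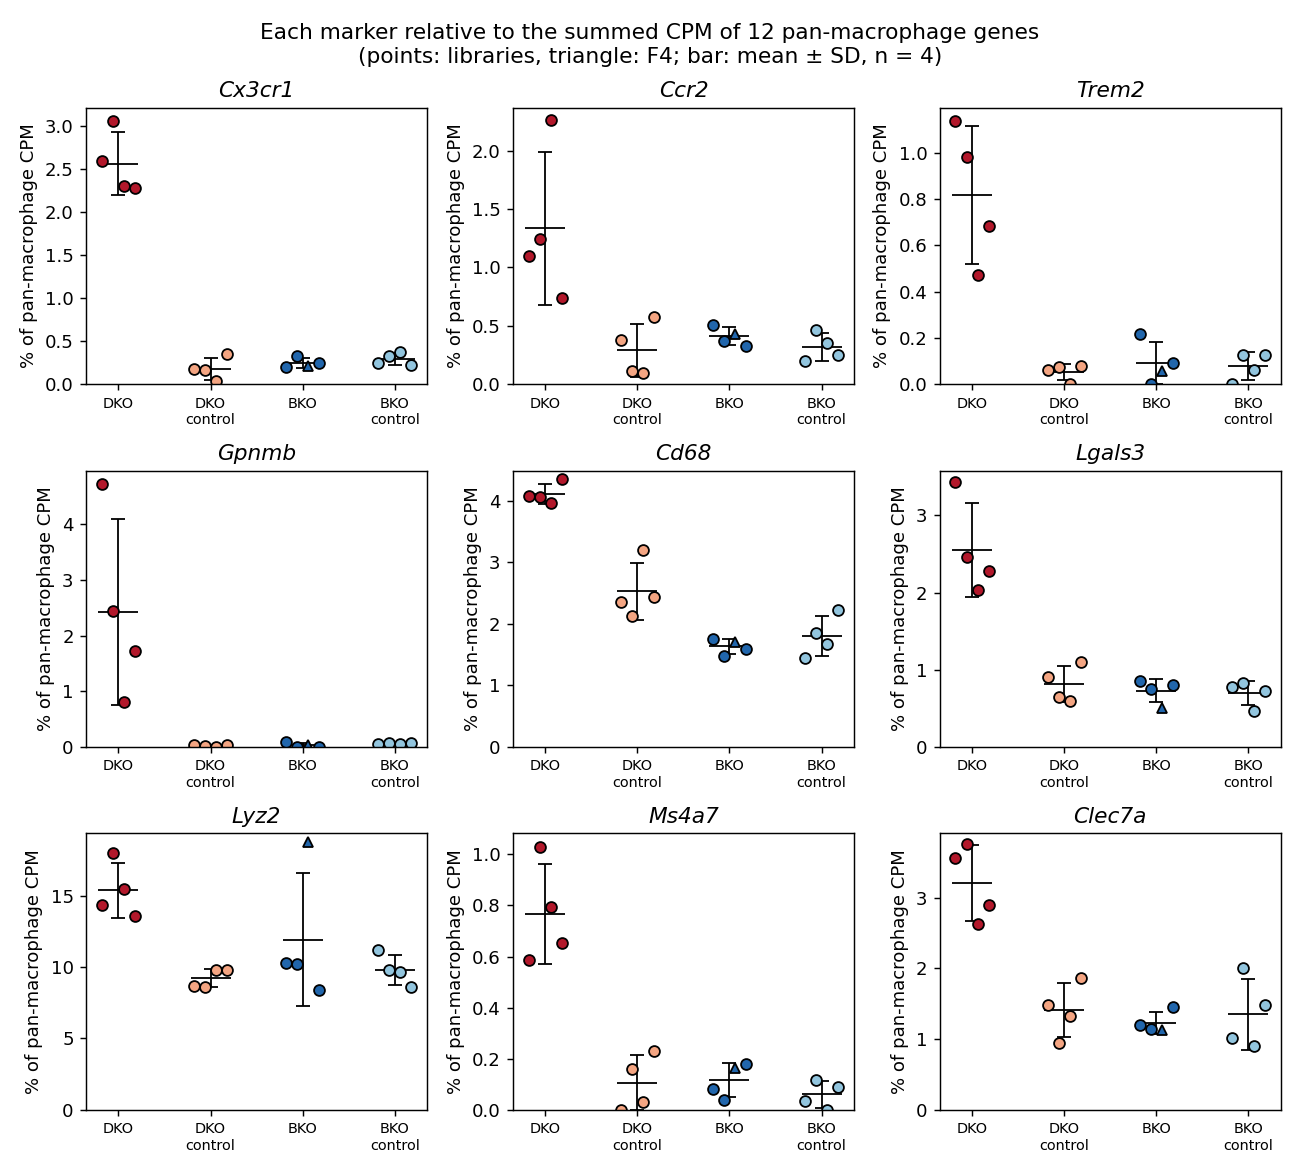
Each marker as a percentage of the summed CPM of 12 pan-macrophage genes, by library, with the mean and SD of 4 libraries. DKO livers lie above their controls for all 9, with means of 2.56% in DKO livers and 0.178% in controls for Cx3cr1 and of 15.4% in DKO livers and 9.21% in controls for Lyz2. In BKO livers the library F4 (triangle) stands apart for Lyz2.

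Markers of other leukocytes and of stellate cells moved in the same livers. Of 8 neutrophil genes with a row, 2 were tested, and only because of their level in DKO livers. Both rose, S100a9 22.3-fold and S100a8 15.1-fold (edgeR adjusted p = 0.000883 and 0.00403). Without DKO-7137 3 were tested, without DKO-7068 4, and without any 1 of the 4 controls 5, all of them called higher. The summed neutrophil level was 5.91 to 40.7 CPM in DKO livers, highest in DKO-7112, against 1.12 to 1.35 CPM in controls, and Elane was at 0 in all of them. Without DKO-7112 the log2 fold change of Lyz2 was 1.54 and that of Ccr2 2.78, and both were still called (edgeR adjusted p = 0.000164 and 0.00134). Summed dendritic cell markers were 20.9 to 27.1 CPM in DKO livers, against 15.6 to 19.97 CPM in controls, and 3 of 6 tested rose (Siglech, Ccr7 and Flt3). Summed T and NK cell markers were 6.63 to 11.2 CPM in DKO livers, against 3.41 to 5.06 CPM in controls, with 1 gene tested and called higher (Cd4). Its groups overlapped, and 0 genes of the list were called without DKO-7070, WT-7114 or WT-7139. Summed B cell markers were 5.43 to 8.64 CPM in DKO livers, against 2.35 to 6.21 CPM in controls, with 1 gene tested and called higher (Jchain). Its groups overlapped, and the call held in 2 of 8 fits with 1 library left out, those without DKO-7112 or WT-7069. Summed stellate cell markers were 1636 to 2484 CPM in DKO livers, against 416 to 586 CPM in controls, and 6 of 9 rose and 1 fell. Most of the DKO sum came from the collagen genes Col1a1 and Col3a1. Col1a1 averaged 559 CPM in DKO livers and 28.2 CPM in controls (19.8-fold), and Col3a1 835 CPM in DKO livers and 89.8 CPM in controls. The 1 that fell was Lrat, at 10.1 CPM in DKO livers and 34.4 CPM in controls (edgeR adjusted p = 0.00383). Reln and Dcn were not called.

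Bile duct markers summed to 21.03 to 45.3 CPM in DKO livers, against 15.3 to 34.1 CPM in controls, and 1 of 3 tested rose (Tspan8). With 1 library left out, 1 to 3 of these genes were called higher, 3 without DKO-7137 and 2 without DKO-7112, WT-7069, WT-7114 or WT-7139. Endothelial markers summed to 285 to 311 CPM in DKO livers, against 300.2 to 384 CPM in controls, with 1 of 6 higher and 2 lower. That 1 was not called without DKO-7070, WT-7067 or WT-7114, and 4 were lower without WT-7114, 2 without DKO-7070 or DKO-7137 and 1 without any other library. With scaling by total counts only, 0 were lower. Of 8 hepatocyte genes, 1 rose and 4 fell, and the 1 was not called without DKO-7112, DKO-7137, WT-7067, WT-7114 or WT-7139. Neutrophils also make Lyz2, and T and NK cells can carry Cx3cr1, and the part of these cells in the values of the 9 markers was not tested. Relatives of the 9 genes were mixed as well: of 13 tested paralogs and family members, 7 rose and 1 fell in DKO livers, the 1 not called without DKO-7068, DKO-7070, WT-7114 or WT-7139. Among those that rose were the chemokine receptor Ccr1 (4.64 CPM in DKO livers, 0.144 CPM in controls), galectin-1 (Lgals1, 3.84-fold) and Ms4a6d (3.63-fold).

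**Figure D4:**
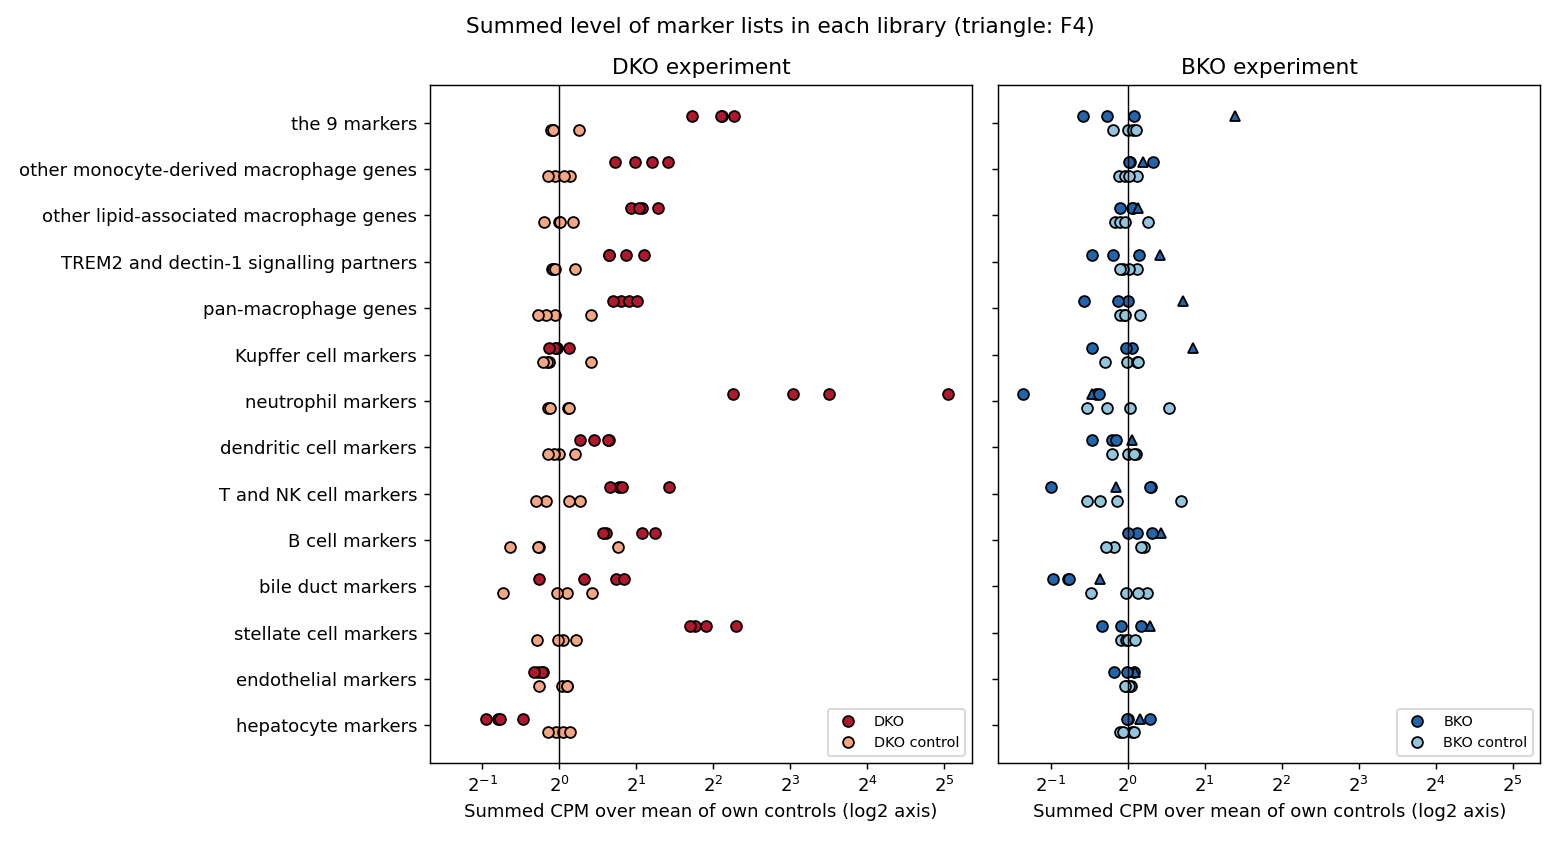
Summed CPM of the 9 markers and of each other list in every library, divided by the mean of its own controls (log2 axis, 1 point per library, DKO above its controls in the left panel, BKO above its controls in the right, F4 as a triangle). In the DKO experiment the sum of the 9 was 190 to 278 CPM in DKO livers, against 53.4 to 68.5 CPM in controls, while the Kupffer cell sums overlap.

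In BKO livers, 7 of the 9 markers passed the filter, and 0 were called in either direction by edgeR, where 0.583% of the 14061 genes tested were called. None reached an unadjusted p under 0.05 in edgeR (0 of 7), and DESeq2 called 0. The groups overlapped for every marker, where 3.64% of all genes tested had all BKO libraries above all controls. The BKO libraries and their controls were deeper than those of the DKO experiment. Values by library are given below in the order F1, F3, F4 and F6, against F2, F5, F5-2 and F7.

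Cx3cr1 stood at 0.687, 0.775, 1.25 and 0.815 CPM in BKO livers, against 0.823, 1.25, 1.12 and 0.909 CPM in control livers (log2 fold change -0.21, 2 SE either side -0.89 to 0.47, edgeR adjusted p = 0.874). The libraries of the 2 groups were interleaved. Ccr2 stood at 1.81, 0.896, 2.56 and 1.08 CPM in BKO livers, against 0.676, 1.18, 1.63 and 0.9996 CPM in control livers (log2 fold change 0.50, -0.31 to 1.31, edgeR adjusted p = 0.706), with F4 and F1 highest. Lyz2 stood at 37.1, 24.8, 112 and 27.5 CPM in BKO livers, against 38.8, 32.5, 34.2 and 34.8 CPM in control livers (log2 fold change 0.52, -0.50 to 1.54, edgeR adjusted p = 0.77). F4 alone stood above the other 7 libraries by a wide margin, and without it the log2 fold change of Lyz2 was -0.24 (edgeR adjusted p = 0.491).

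Cd68 averaged 6.33 ± 2.79 CPM in BKO livers and 6.53 ± 1.74 CPM in controls, and its log2 fold change was bounded at -0.64 to 0.56 by 2 SE either side. Lgals3 averaged 2.64 ± 0.585 CPM in BKO livers and 2.52 ± 0.638 CPM in controls, with bounds of -0.47 to 0.60, and Clec7a 4.64 ± 1.62 CPM in BKO livers and 4.88 ± 1.93 CPM in controls, with bounds of -0.72 to 0.57. For these 3 genes the upper bounds lay below the log2 fold changes in DKO livers (Cd68 1.58, Lgals3 2.54 and Clec7a 2.11). Ms4a7 had 60 counts in BKO livers and 24 in controls, and its bounds of -0.54 to 2.83 leave a wide range. Trem2 and Gpnmb did not pass the filter. Trem2 stood at 0.785, 0, 0.336 and 0.293 CPM in BKO livers, against 0, 0.196, 0.441 and 0.5 CPM in control livers, and Gpnmb at 0.294, 0, 0.214 and 0 CPM in BKO livers, against 0.206, 0.157, 0.271 and 0.273 CPM in control livers. Every group of the BKO experiment was thus near the floor of detection for both, and with no filter their log2 fold changes were 0.27 (edgeR adjusted p = 0.958) and -0.91 (edgeR adjusted p = 0.801).

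The BKO libraries differed among themselves. F4 was the highest BKO library for 6 of the 9 markers and F3 the lowest for 8 of the 9. The 9 summed to 34.7 to 137 CPM in BKO livers, with F4 at the top, against 45.5 to 55.8 CPM in controls. In F4 the pan-macrophage genes summed to 594 CPM and the Kupffer cell markers to 634 CPM, against 337 to 403 and 287 to 384 CPM in BKO controls, so resident macrophage genes were also high there. In F3 these sums were 243 and 255 CPM. The share of the 9 in the pan-macrophage sum was a ratio of 0.131 to 0.230 in BKO livers, F4 highest, and 0.135 to 0.156 in controls. Of all the marker lists tested, 0 genes were called in BKO livers by edgeR, with list medians of 0.32 for the other monocyte-derived genes, 0.28 for the Kupffer cell markers and 0.10 for the pan-macrophage genes.

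**Figure D5:**
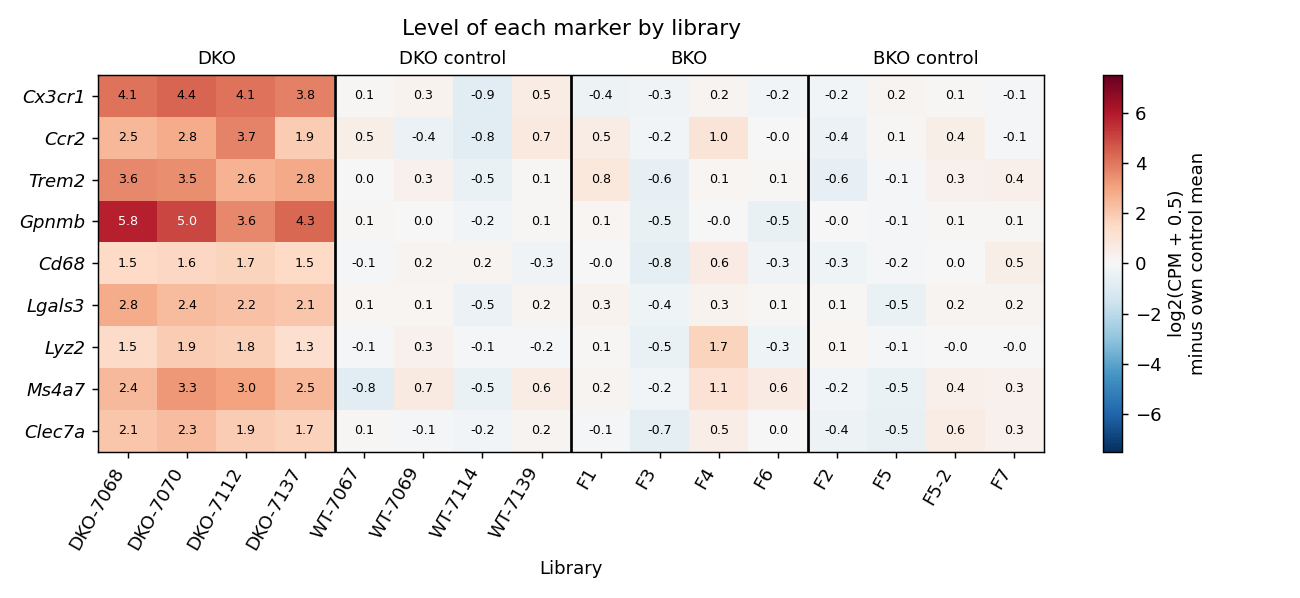
Level of each marker in every library as log2(CPM + 0.5) minus the mean of its own controls, with the DKO livers left of their controls and the BKO livers left of theirs. The DKO columns are high for all markers, and among BKO columns F4 is high and F3 low for most.

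The difference of the effects, DKO over its controls minus BKO over its controls, was tested over all 16 libraries. Of the 9, 7 were called higher in DKO by edgeR, where 11% of the 14050 genes tested were called higher and 11.5% lower. Trem2 and Gpnmb are among the 7, though they did not pass the filter in the BKO experiment and had 8 and 3 counts in DKO controls. They were tested here only because of their level in DKO livers. The Gpnmb difference exceeds its DKO effect of 7.51, on 13 counts in BKO livers and 25 in BKO controls. Cx3cr1 differed by a log2 value of 4.91 ± 0.46 (SE, edgeR adjusted p = 2.06e-06), Gpnmb by 8.58 ± 1.33 (edgeR adjusted p = 0.000319) and Lgals3 by 2.45 ± 0.34 (edgeR adjusted p = 8.15e-05). Cd68 and Clec7a differed by 1.59 and 2.15 (edgeR adjusted p = 0.0038 and 0.000842), and Ccr2 by 2.73 (edgeR adjusted p = 0.0109). Trem2 differed by 4.44 ± 1.31 (edgeR adjusted p = 0.0231), a call that was lost without the BKO control F5-2 (4.09, edgeR adjusted p = 0.0549) or F7 (4.06, edgeR adjusted p = 0.0536).

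Lyz2 and Ms4a7 were the 2 not called. The difference was 1.07 ± 0.54 for Lyz2 (edgeR adjusted p = 0.174) and 2.49 ± 1.16 for Ms4a7 (edgeR adjusted p = 0.137). Without F4 the Lyz2 difference was 1.83 and passed the threshold (edgeR adjusted p = 5.45e-05). Of the other lists, 5 of 11 tested other monocyte-derived genes, 7 of 14 other lipid-associated genes and 4 of 12 pan-macrophage genes were called higher in this difference. Of 10 Kupffer cell markers, 0 were called higher and 1 lower. Stellate cell markers had 5 of 9 called higher and 1 lower. Called higher were also 3 of 4 neutrophil, 3 of 7 bile duct (Tspan8, Krt19 and Epcam) and 2 of 6 dendritic cell markers. Of 5 T and NK cell and 4 B cell markers tested, 0 were called. Endothelial and hepatocyte markers had 0 higher, and 2 of 6 and 4 of 8 lower. Without F4 the counts called higher were 8 of 11 for the other monocyte-derived genes and 9 of 12 for the pan-macrophage genes, and with scaling by total counts only they were 7 of 11 and 7 of 12, with 8 of 14 for the other lipid-associated genes.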

How the data were processed

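RNA of mouse liver was sequenced in 16 libraries, with TRIzol and RNeasy used for extraction and NuGEN's Ovation system for the libraries (per the labels). The authors deposited raw counts per gene, whole and not normalized, in 1 table for each experiment. Per the submitters' processing notes, the tools were featureCounts 1.6.2, HISAT2 2.1.0 and Trim Galore 0.4.1, and the builds GRCm38, mm10 and GRCh38 were listed with no role. Strand setting, annotation and multi-mapped reads: not given in the sources used here. Members and lists were chosen with earlier results of these data known.

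The test was the robust quasi-likelihood fit of edgeR 4.0.16 under R 4.3.3, with filterByExpr and TMM scaling. DKO and BKO were fitted separately, and the difference of the effects over all 16 libraries joined on 24394 gene names, since 27 BKO names had turned into dates. Calls are at a Benjamini-Hochberg adjusted p under 0.05 over all genes tested. Levels are TMM-scaled CPM, and the SE is the log2 fold change over the square root of the F statistic. With every pair of libraries of a group differing beyond sampling noise, none were merged. DKO-7068 and DKO-7070 were by far the closest pair. Their chi-square per degree of freedom was 6.92, against 25.4 to 114 for the other pairs. That libraries are separate animals rests on their tags, so p-values measure the spread between these libraries. Named were all 9 members, up to 3 genes by p of each list in DKO livers, and 5 genes of the most similar pattern. Ccl2, Ccl7, Ccl12, Ly6c2, Spp1, Cd9, Fabp5, Lipa, Card9, Malt1, Bcl10, Clec4f, Vsig4, Spic, Adgre1, Csf1r, Krt19, Krt7, Tyr, Mlana, Pmel, Elane, Col3a1, Lrat, Reln and Dcn were added after their values were seen. The same steps on simulated counts with 200 changed genes recovered 65.6% of 2-fold changes for DKO (12687 genes), 66.7% for BKO (13871 genes) and 41.8% for the difference (13905 genes). Of 1.5-fold changes, 15.5%, 24.6% and 0% were recovered in that order. False calls made up 5%, 10.8% and 5.88% of the calls. Recovery was not checked apart for genes at low counts. Alternatives were DESeq2 1.42.0, other scalings, filters, the tag series as a term and each library left out. DKO-7068 and DKO-7070, the closest pair, were also summed in an alternative fit, and so were F5 and F5-2, which share a number. 0 columns were left without a sample.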

Additional observations from a re-analysis of the deposited data

Results flagged for a closer look

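In 3 of 36 marker and group sets of 4 libraries, 1 library stood apart from the other 3 by Dixon's criterion at 95%, which chance would flag in about 1 of 20 groups. Lyz2 was 111.6 CPM in the BKO library F4, against 24.8 to 37.1 CPM in the other BKO libraries. Lgals3 was 2.13 CPM in the DKO control WT-7114, below the other DKO controls, and 1.57 CPM in the BKO control F5, below the other BKO controls.

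The DKO effect minus the BKO effect, tested in 1 fit over all 16 libraries, passed the threshold for 7 markers (edgeR with Benjamini-Hochberg adjustment). Of all genes tested, 11% were called higher in this difference and 11.5% lower. The log2 difference was 4.91 for Cx3cr1, 2.73 for Ccr2, 4.44 for Trem2, 8.58 for Gpnmb, 1.59 for Cd68, 2.45 for Lgals3 and 2.15 for Clec7a. All 4 DKO libraries stood above their controls for each of the 7, as they did for 18.5% of all genes tested in DKO livers. BKO libraries and their controls overlapped for each, where 3.64% of all genes tested had all BKO libraries above all controls.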

How the results depend on the processing

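All 9 markers kept their direction and their call in DKO livers under each of 16 alternatives, and 72 of 72 values with 1 library left out and 72 of 72 under other settings did so. No paired analysis was possible because the labels give animal tags and no replicate numbers shared between groups. The tag series of the DKO experiment, which hold 2 DKO livers and 2 controls each, could be fitted as a term, and the 9 were called with 2570 genes higher and 2246 lower. Scaling by total counts only moved the median log2 fold change of all genes to 0.20 in DKO, -0.07 in BKO and 0.27 in the difference, with 3266 genes called higher and 1269 lower in DKO livers (72.0% higher, against 53.6% with TMM), 86 lower in BKO livers, and 2627 higher and 744 lower in the difference, and it turned Lgals3 in BKO livers to -0.015. DESeq2 called 152 genes higher and 203 lower in BKO livers, and edgeR 26 and 56, 0 of them markers by either tool. Leaving out 1 library gave 4 to 33 genes higher and 13 to 73 lower in BKO livers, and log2 fold changes there of -0.11 to 0.21 for Lgals3, -0.38 to 0.16 for Cd68, -0.31 to 0.16 for Clec7a and -0.24 to 0.75 for Lyz2, 0 of which passed the threshold. In the difference, Lyz2 passed only without F4 (1.83) and Trem2 fell short without F5-2 (4.09) or F7 (4.06). Low counts limit Trem2, Gpnmb and Ms4a7 in all controls and in BKO livers, where a library held few counts or 0. F3, the deepest library, had 0 counts of Trem2 and of Gpnmb.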

Other observations

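The DKO livers did not rank alike for every marker. DKO-7070 was the highest DKO library for 4 of the 9, DKO-7068 for 3 and DKO-7112 for 2, and DKO-7137 was the lowest for 6. DKO-7112 combined the highest Ccr2 of the group (18.2 CPM) and the highest summed neutrophil markers (40.7 CPM, against 5.91 to 14.03 CPM in the other DKO livers) with the lowest Gpnmb (6.51 CPM) and the lowest Trem2 (3.80 CPM). DKO-7068 had the highest Gpnmb (33.01 CPM) and the lowest neutrophil sum. With 4 libraries no relation between these measures was tested.

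Outside the lists, the 5 genes whose levels followed the median of the 9 markers most closely over the 16 libraries, among 12169 candidates, were Gpx3, Ccdc80, Fstl1, Frzb and Myo5a. Their root mean square distance from that median was 0.24 to 0.26 on the log2(CPM + 0.5) scale, against 0.21 for Lgals3, the nearest marker, and 1.20 for Gpnmb, the farthest. Gpx3, an extracellular glutathione peroxidase, had a log2 fold change of 2.62 in DKO livers, and Frzb, a secreted Wnt antagonist, of 2.97. In BKO livers these were 0.09 and -0.02. The likeness is a description and carries no test.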
